A study of Mus musculus with 8 samples.

Results

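The genes described here encode subunits of dynein, a motor that walks along microtubules, and of dynactin, the complex that links dynein to its cargo. They were taken from the deposited gene table by the start of the gene symbol, which gave 42 gene models with 41 symbols out of 56324 gene models (Dnah12 has a pair of models, one at each end of the gene). Poly(A)-selected RNA was sequenced from 4 spermatocyte libraries and 4 spermatid libraries, made from germ cells that were separated by sedimentation under gravity from 12-week-old C57BL/6 males. All 8 libraries are labelled Sam68 -/-, so by their labels both groups lack the RNA-binding protein Sam68, and the comparison is between cell types within that genotype. No wild-type library was analysed here, and the labels name no promoter, Cre line or other agent. The labels do not say whether the 4 libraries of a cell type are separate animals. The p-values therefore cover the spread of these libraries and no more, and part of that spread may be technical.

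Dyneins move towards the minus end of microtubules, and their motor lies in a large heavy chain that binds smaller intermediate, light intermediate and light chains. Axonemal dyneins form the outer and inner arms of cilia and sperm tails, where sliding of microtubule doublets by the arms bends the tail. Cytoplasmic dynein 1, with dynactin, carries organelles, RNA and chromosomes, and dynein 2 returns cargo along cilia to the cell body. Spermatocytes pass through meiosis, and spermatids then assemble the sperm tail and reshape the nucleus.

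The spermatocyte libraries held 49000266 to 78060212 reads each, and the spermatid libraries 60673309 to 93975960. Khdrbs1, which encodes Sam68, had 3808, 3421, 4319 and 4985 in the spermatocyte libraries and 651, 625, 854 and 1129 in the spermatid libraries, in normalized counts, meaning the reads of a gene model after scaling by the library's size factor. Its model may hold parts outside the deletion, so these reads do not check the label. The spermatid markers summed to 14589.9 to 29304 in spermatocytes and 403947 to 484334 in spermatids, with 7 of 7 called higher. The spermatocyte markers summed to 367836 to 426787 and 191128 to 261963, with 3 of 7 called lower, beside 29.8% of all tested models. Hspa2 and Piwil1 hold most of these sums. Piwil1, with a mean of 136863 in spermatocytes and 4256 in spermatids, was called lower, as were Mybl1 and Spo11. Hspa2, Sycp1, Sycp3 and Hormad1 were not called, and their groups overlapped. Sycp1 had 8626 to 14192 in spermatids, and its log2 fold change was 0.10. Markers of other cell types moved as well: 10 of 10 Sertoli cell markers were lower in spermatids (sums 12062 to 52006 against 1811 to 3061) and 6 of 7 Leydig cell markers were lower (5177 to 9295 against 2218 to 2578). The Leydig marker not called, Insl3, was read from a model joined with Jak3, at 720 to 1510 and 1121 to 1991. That joint model makes up a large part of the Leydig sum in spermatids. In spermatids 6 of 7 macrophage and blood markers were higher (131 to 154 against 2739.7 to 5476), as were 4 of 5 peritubular markers (611 to 1115 against 970.0 to 1977) and 3 of 7 spermatogonium markers (892 to 2066 against 2271 to 5193), beside 32.5% of all tested models. The peritubular sums overlapped, and Tagln, the largest of that list in spermatocytes, was not called, with a log2 fold change of -0.61. The spermatogonium markers Zbtb16, Dmrt1, Sall4 and Uchl1 were not called either, at 1.26, 0.89, 0.74 and -0.21. None of these lists had a marker under 3 reads in all 8 libraries. Spermatocyte library 3 stood apart: its mean log2 level of the Sertoli markers was 11.70, against 9.44, 10.12 and 10.48 in the other spermatocyte libraries. Spermatocyte library 4 stood apart in the spermatocyte markers, at a mean log2 level of 13.35 against 14.48, 14.63 and 14.69. It was the lowest spermatocyte library for Sycp1, Sycp3 and Hormad1, genes of the meiotic chromosome axis, with 1653 for Sycp1 against 12679.6 to 26689.6 in the others. It was also the lowest for Mybl1 and, by little, for Spo11. For Piwil1 it was instead the highest, at 166551 against 118349 to 141922. For Hspa2 it was the highest too, at 239598 against 169337 to 199747. Without that library 7 members were called higher and 10 lower, the same counts as with it. Among the lower calls, Dynlt1c was lost and Dync2h1 was gained. The part that these cells play in the results was not tested.

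All 42 models reached 10 normalized counts in 4 or more libraries and were tested. To be called, a model needed a limma adjusted p under 0.05 and a log2 fold change of 1 or more in either direction. Of the 42, 7 were called higher in spermatids and 10 lower, which is 40.5% of the members beside 62.3% of all 28735 models tested (32.5% higher and 29.8% lower). The median log2 fold change of the members was -0.013 and that of all tested models was -0.011. The groups did not overlap for 9 members that were higher in spermatids and for 11 that were lower, and for 66.4% of all tested models (34.2% higher and 32.2% lower). The calls were unevenly spread over the roles: axonemal heavy chains gave 3 higher and 9 lower of 15 models, the shared light chains 3 higher and 1 lower of 9, and dynactin 1 higher of 6. No axonemal intermediate or light chain (of 5) and no subunit specific to the cytoplasmic dyneins (of 7) was called. Because these are bulk samples, fewer cells of a type and less RNA per cell cannot be told apart.

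**Figure D1:**
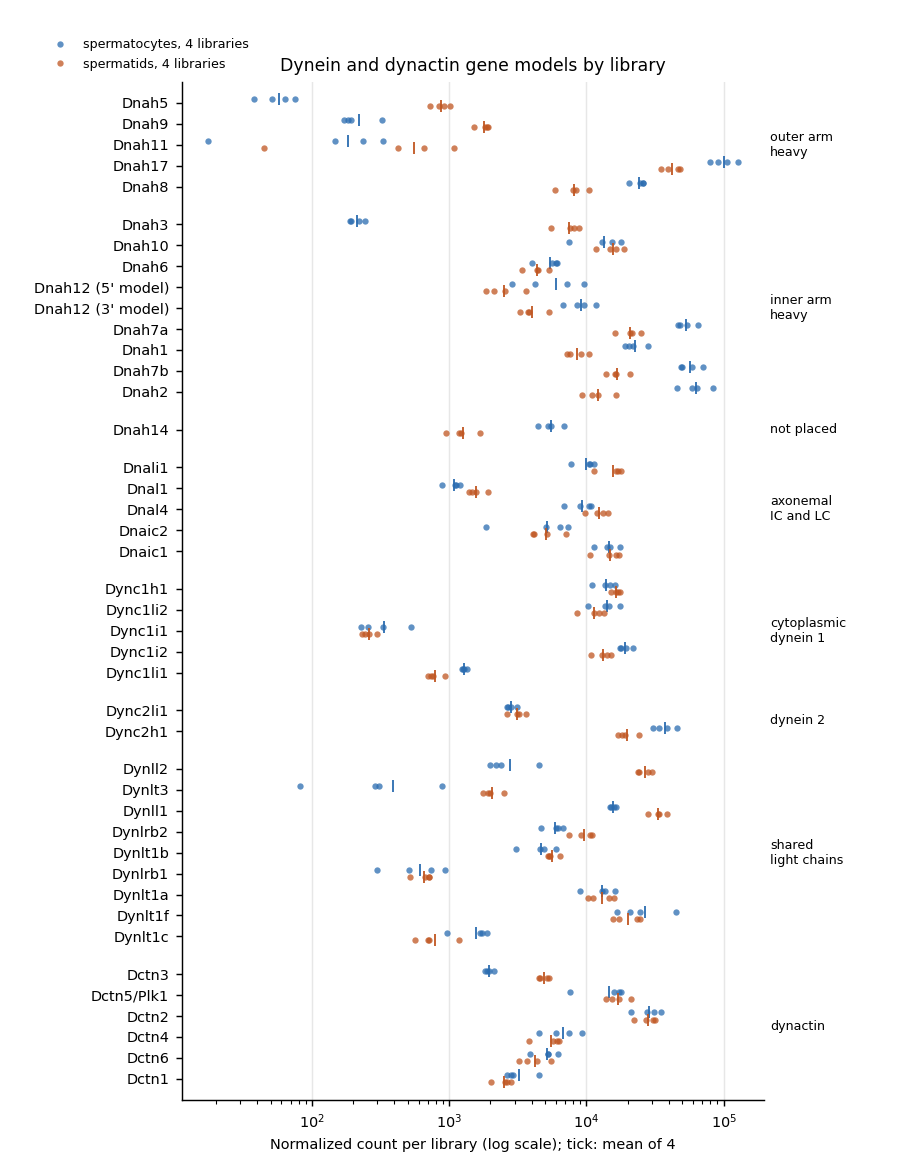
Normalized count of each dynein and dynactin gene model in each library (log axis), ordered by role. Points are the 4 spermatocyte and 4 spermatid libraries and ticks are the mean of 4; the outer arm heavy chains Dnah5 and Dnah9 and the inner arm heavy chain Dnah3 sit to the left in spermatocytes and move right in spermatids, while Dnah17, Dnah8, Dnah2, Dnah7a and Dnah7b move left.

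The split of the calls depended on the scaling. With equal total reads per library 5 members were higher and 12 lower, with quantile normalization 5 and 13, and with a GC-content trend removed 6 and 14 of 41, so the share of higher calls among the calls went from 41.2% to 29.4%, 27.8% and 30.0%. Over all tested models that share fell too, from 52.2% to 42.6% and 44.5% with the first 2 scalings, and from 62.6% to 47.6% when the GC trend was removed over the models with a GC value. The first 2 of these scalings moved the median of all tested models to -0.44 and -0.36, and removal of the GC trend moved it from 0.25 to -0.26 over 17045 models with a GC value. The 12 calls among axonemal heavy chains stood under all 3. The sign of the log2 fold change turned for 10, 10 and 9 members under the 3 scalings, none of which had been called.

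**Figure D2:**
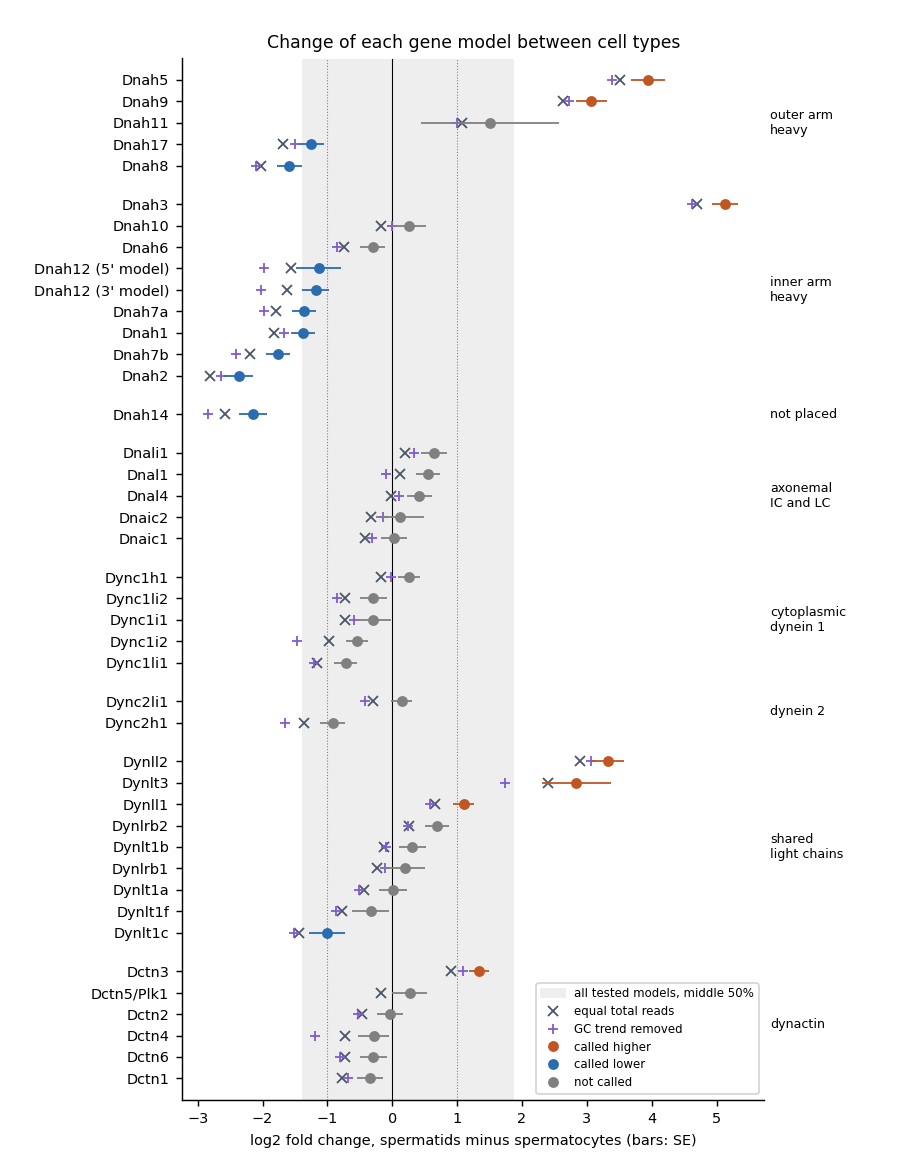
Log2 fold change, spermatids minus spermatocytes, of each gene model (points, with the SE as bars) and the same value with equal total reads (crosses) and with the GC trend removed (plus signs). The grey band holds the middle 50% of all 28735 tested models; 4 rises (Dnah3, Dnah5, Dynll2 and Dnah9) lie beyond 3, and the falls of Dnah2, Dnah14, Dnah7b and Dnah8 lie below the band, with Dnah1 at its edge.

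Among the outer arm heavy chains, the 2 abundant genes fell and 2 scarce ones rose. Dnah17, a beta-type heavy chain of the sperm tail (chr11:118021723-118129219), had 106633, 90759, 79253 and 127022 in the spermatocyte libraries and 34699, 48330.5, 46191 and 39477 in the spermatid libraries. All spermatid libraries lay below all spermatocyte libraries, and the log2 fold change was -1.25 (SE 0.19, adjusted p = 8.05e-05). Dnah8 (chr17:30626934-30875266), the gamma-type heavy chain of the sperm tail, had 24379, 26008, 20489 and 25852 in the spermatocyte libraries and 5888, 10409, 8419 and 7980.1 in the spermatid libraries, again without overlap, and fell, with a log2 fold change of -1.59 (SE 0.19, adjusted p = 1.11e-05).

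Dnah5 and Dnah9 are the gamma-type and beta-type outer arm heavy chains best known from motile cilia of the airway. Dnah5 (chr15:28203765-28472045) had 51.6, 75.6, 38.02 and 63.9 in the spermatocyte libraries and 729.9, 1015, 838 and 919 in the spermatid libraries. The spermatocyte libraries were all low and every spermatid library was higher, with a mean 15.3-fold higher and a log2 fold change of 3.94 (SE 0.27, adjusted p = 7.14e-08). Dnah9 (chr11:65831324-66168552) had 183, 173, 327 and 193 in the spermatocyte libraries and 1523, 1923, 1812 and 1887 in the spermatid libraries. Spermatocyte library 3 was the highest of its group, the groups did not overlap, and the log2 fold change was 3.07 (SE 0.23, adjusted p = 2.13e-07), or 3.28 without that library.

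Beside these rises, 5 of 8 multiciliated-cell markers were called higher in spermatids, as were 32.5% of all tested models. The list summed to 8116 to 11739 in spermatocytes and 51758 to 75600.0 in spermatids, and Deup1 held the largest part of the spermatid sum. Foxj1, a master regulator of motile cilia, had 182 to 287 in spermatocytes and 5128 to 8233 in spermatids. Gmnc, which acts early in the making of multiciliated cells, had 0 to 4.47 and 77.02 to 129.9. Gmnc reached 10 normalized counts only in the spermatid libraries, so its call largely follows from the filter. Deup1, a part of the deuterosomes that produce many centrioles, had 2004 to 3709 and 28722 to 43160.1, and Ccno had 95.2 to 136 and 205 to 267. These 4 genes were called higher, as was Cdhr4, whose model is joined with Ip6k1 (2535 to 3877 and 11389 to 16983). Mcidas, which commits cells to many cilia, was low in both cell types (0.981 to 14.5 and 6.005 to 9.35) and was not tested. Cdhr3, at 0 to 2.24 and 3.27 to 9.85, was not tested either. Pifo, at 3272 to 3827 and 6188 to 7246, was not called, with a log2 fold change of 0.90 and no overlap. The part of these markers in the rise of Dnah5 and Dnah9 was not tested.

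Dnah11 (chr12:117877982-118199043), another beta-type heavy chain of airway cilia, was not called. It had 147, 17.7, 236 and 328 in the spermatocyte libraries and 427, 44.9, 661 and 1084 in the spermatid libraries. Library 2 of each cell type was far below the rest, and the groups overlapped, with a log2 fold change of 1.51 (SE 1.06, adjusted p = 0.222). Without spermatid library 2 it was called, at 2.48 (adjusted p = 0.0196). Dnah11 shares 642 exon bases with Cdca7l on the opposite strand, whose model had 380.4, 812, 427 and 102 in the spermatocyte libraries and 337, 549, 455 and 84.9 in the spermatid libraries. Library 2 of each cell type was the highest of its group for Cdca7l. The order of the 4 numbered libraries was the same in both cell types, for Dnah11 as for Cdca7l. The labels do not say whether libraries of the same number share an animal, so the test treats all 8 as separate. Whether reads were counted by strand is not given in the sources used here, so reads from the shared bases cannot be assigned.

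In the inner arms, 6 of 9 models fell, 1 rose and 2 were not called. Dnah2, a heavy chain of the inner arm that holds a pair of heavy chains, lies at chr11:69420809-69549111 and had 64306, 59109, 45568 and 83252 in the spermatocyte libraries and 9304, 16361, 12232 and 10897 in the spermatid libraries. Its mean of 63059 ± 15608 (SD, n = 4) in spermatocytes went to 12198 ± 3022 in spermatids, 5.17-fold lower, without overlap. The log2 fold change of -2.37 (SE 0.23, adjusted p = 1.33e-06) was the largest fall among the members. Dnah10, its partner in that arm, did not follow: it had 7432 to 17972 and 11776 to 18919, with a log2 fold change of 0.25 (SE 0.26, adjusted p = 0.398).

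The other inner arm heavy chains work as single motors. Dnah7b (chr1:46066738-46373550) had 58506, 71094, 49562 and 48618 in the spermatocyte libraries and 13798, 20878, 16333 and 16220.4 in the spermatid libraries, and fell, with a log2 fold change of -1.76 (SE 0.19, adjusted p = 3.68e-06). Dnah7a (chr1:53397002-53706784) had 54197, 64728, 46360.2 and 47819 in the spermatocyte libraries and 16201, 24994, 21624 and 20695 in the spermatid libraries, and its log2 fold change was -1.36 (SE 0.18, adjusted p = 2.93e-05). Neither gene's groups overlapped. Their coding sequences in GENCODE release M21 are 97.0% identical and 30.9% of the 50-base windows of Dnah7a occur in Dnah7b, so the split of reads between both is uncertain, while their sum was 2.92-fold lower in spermatids. Dnah7c, a further copy, was not analysed here.

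Dnah1 (chr14:31260375-31323898), a heavy chain whose loss disturbs the sperm tail, had 22000.1, 20418, 19120.4 and 28151 in the spermatocyte libraries and 7176, 10424, 9189 and 7605 in the spermatid libraries. The groups were separate and the log2 fold change was -1.38 (SE 0.19, adjusted p = 2.69e-05). Dnah6 was not called, with 4019 to 6065 in spermatocytes, 3409 to 5329 in spermatids and a log2 fold change of -0.30 (SE 0.20, adjusted p = 0.181).

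Dnah3 was the one inner arm heavy chain to rise, and its rise was the largest among the members. It had 189, 244, 192 and 220.3 in the spermatocyte libraries and 5523, 7559, 8887 and 8089 in the spermatid libraries. Spermatocyte libraries were all near the same low level and spermatid libraries were 35.5-fold higher on average, with a log2 fold change of 5.13 (SE 0.20, adjusted p = 1.13e-09). Its model (chr7:119925979-119952157, minus strand) covers only 22.7% of the annotated exon bases of Dnah3, near its 3' end. The model lies wholly inside that of Lyrm1 (chr7:119895858-119956963) on the opposite strand and shares 729 exon bases with it. Lyrm1 itself had 3583, 4484, 2948 and 3965 in the spermatocyte libraries and 5401, 8349, 8674 and 8599 in the spermatid libraries, a log2 fold change of 1.04 (SE 0.20, adjusted p = 5.83e-04). Both models rose, the Dnah3 model from far below Lyrm1 in spermatocytes to about its level in spermatids. What share of its spermatid reads came from Lyrm1 was not tested.

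Dnah12 and Dnah14 were covered by short models. The 5' model of Dnah12 (chr14:26693273-26724502) held 18.9% and the 3' model (chr14:26872333-26891703) 14.3% of the annotated exon bases. The 3' model had 9684, 11811, 6776 and 8489 in the spermatocyte libraries and 3265, 5351, 3788 and 3733 in the spermatid libraries, with no overlap and a log2 fold change of -1.18 (SE 0.21, adjusted p = 3.01e-04). The 5' model had 7243, 9560.4, 4218 and 2861 in the spermatocyte libraries and 1847, 3604, 2132 and 2546 in the spermatid libraries. Spermatocyte library 4 was low for this end of the gene and overlapped the spermatids, and the log2 fold change was -1.13 (SE 0.34, adjusted p = 0.0105). This call was lost without spermatocyte library 1 (-0.99), spermatocyte library 2 (-0.86) or spermatid library 1 (-0.997). The ratio of the 5' to the 3' model was 0.748, 0.809, 0.622 and 0.337 in spermatocytes and 0.566, 0.674, 0.563 and 0.682 in spermatids, which puts spermatocyte library 4 below the other 7.

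Dnah14, a heavy chain that is not placed in an arm here, had 5493, 6888, 4412 and 5251 in the spermatocyte libraries and 948, 1691, 1211 and 1175 in the spermatid libraries. Every spermatid library was lower, with a log2 fold change of -2.15 (SE 0.21, adjusted p = 1.79e-06). Its model (chr1:181738986-181769674) holds 16.3% of the annotated exon bases. A further 3 models without a symbol that overlap the annotated gene passed the filter and were called lower, with log2 fold changes of -2.004, -1.73 and -2.71. The last of these also overlaps the model of Lbr, whose own log2 fold change was -2.76.

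Summed over the 15 models, axonemal heavy chains held 374478, 380003, 288003 and 401664 in the spermatocyte libraries and 116515, 176833, 154180.0 and 141587 in the spermatid libraries. The groups did not overlap, and the spermatocyte mean was 2.45-fold higher, or 2.58-fold higher without Dnah3. Outer and inner arm sums fell by like factors, 2.34 and 2.49. To compare levels between genes, counts were divided by the kilobases of annotated exon in each model. On that scale Dnah17 was first among heavy chains in both cell types, with 6281 ± 1289 normalized counts per kb in spermatocytes and 2625 ± 389 in spermatids (SD, n = 4). The 3' model of Dnah12 came next in both, at 5368 ± 1236 and 2356 ± 531, within its own SD of Dnah17. Dnah2, at 4213 ± 1043, and Dnah7a, at 4173 ± 655, did not differ in spermatocytes beyond their spread.

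Within the per-kb sum of the heavy chain models, Dnah2 went from 13.3% to 5.51% and Dnah14 from 6.59% to 3.22%. The sum takes both models of Dnah12, at 8.16% (5') and 16.8% (3') in spermatocytes, so that gene is counted with each model. Dnah10 went the other way, from 2.61% to 6.56%, and the Dnah3 model from 0.208% to 15.9%. Dnah17 stayed near 19.9% and 17.98%. Dnah5, Dnah9 and Dnah11 remained at the bottom of the order of heavy chains in spermatids despite the rises of the former pair. They stood at 56.05 ± 7.75, 112 ± 11.4 and 38.3 ± 30.1 per kb, against 333 ± 75.7 for Dnah8. The exon length used was 24.5 kb for Dnah8, whose coding sequence is 14193 bases. It was 15.6 kb for Dnah5 (13863 coding bases) and 15.9 kb for Dnah9 (13452), so Dnah8 may be understated beside them.

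**Figure D3:**
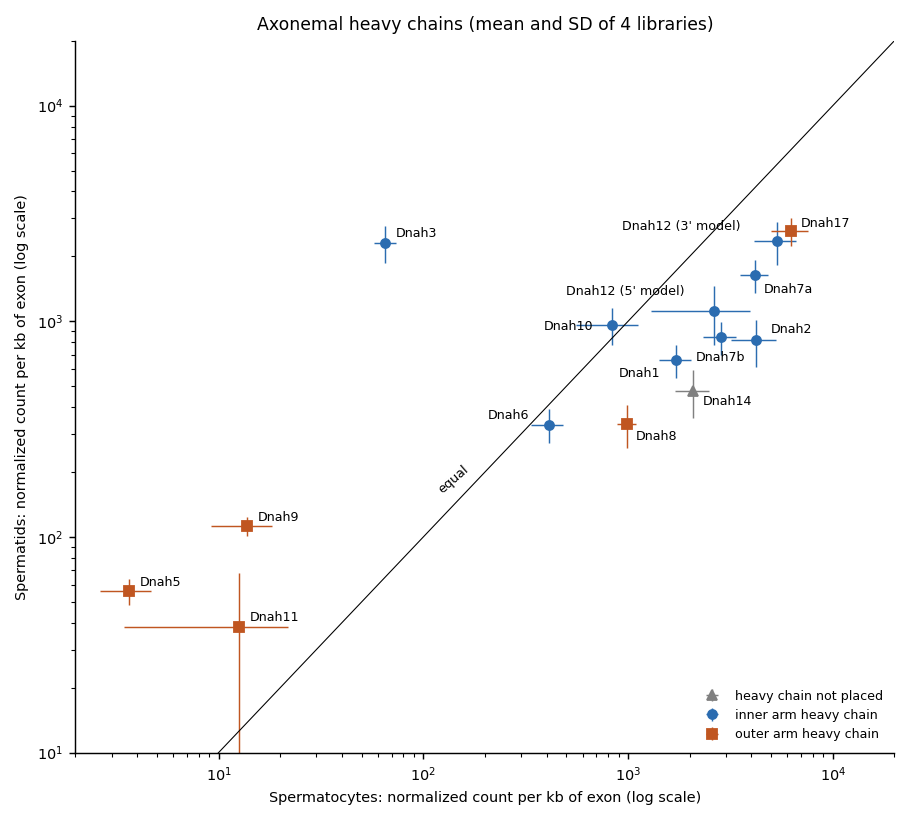
Normalized count per kb of exon of each axonemal heavy chain model in spermatocytes (x axis) and spermatids (y axis), both log scales, as the mean of 4 libraries with the SD as bars. Points below the line of equal levels are lower in spermatids; Dnah3, Dnah5, Dnah9, Dnah11 and, close to it, Dnah10 (at -0.18 in log2 terms with equal total reads) lie above it, and the SD of Dnah11 in spermatids reaches the edge of the plot.

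The smaller axonemal subunits showed no call. Dnaic1 (chr4:41569793-41638157), an outer arm intermediate chain, had 14130.2, 14779, 11416 and 17702 in the spermatocyte libraries and 10651, 17159, 16542 and 14721 in the spermatid libraries. The groups overlapped and the log2 fold change was 0.019 (SE 0.20, adjusted p = 0.935). Dnaic2 (chr11:114727412-114757886), the other intermediate chain of that arm, had 6440.1, 5067, 1869.7 and 7405 in the spermatocyte libraries and 4055, 7053, 5203 and 4173 in the spermatid libraries. Spermatocyte library 3 was low, the groups overlapped, and the log2 fold change was 0.11 (SE 0.37, adjusted p = 0.793).

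Dnali1, a light intermediate chain of inner arms, passed the adjusted p without reaching the fold required for a call, with 7669.9 to 11315 in spermatocytes, 11299.6 to 17821 in spermatids and a log2 fold change of 0.64 (SE 0.20, adjusted p = 0.0114). Dnal1, a light chain that binds an outer arm heavy chain, did likewise, with 881 to 1208 and 1391 to 1905 and a log2 fold change of 0.55 (SE 0.18, adjusted p = 0.0167); its groups did not overlap. Dnal4, a light chain, had 6915 to 10826 and 9786 to 14412, with a log2 fold change of 0.42 (SE 0.19, adjusted p = 0.0721). Levels of these 5 genes therefore differed in log2 terms by 0.019 to 0.64 while the median heavy chain model stood at -1.18. With equal total reads Dnaic1 stood at -0.42, Dnaic2 at -0.32 and Dnal4 at -0.022. Dnal1 stood at -0.098 with the GC trend removed. The direction of these 4 genes thus depended on the processing.

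In cytoplasmic dynein 1, no subunit was called. The heavy chain Dync1h1, which holds the motor, had 10989.9 to 16128 in spermatocytes and 15096 to 17617 in spermatids, with a log2 fold change of 0.26 (SE 0.17, adjusted p = 0.181). Dync1i2 (chr2:71211706-71263300), an intermediate chain that binds dynactin, had 19433, 21909, 17651 and 17992 in the spermatocyte libraries and 10749, 15127, 14094 and 13091 in the spermatid libraries. Every spermatid value lay below every spermatocyte value, at -0.54 (SE 0.17, adjusted p = 0.0109). Its relative Dync1i1 (chr6:5725638-6028042) had 229, 258, 524 and 328 in the spermatocyte libraries and 233, 246, 263 and 298 in the spermatid libraries, with spermatocyte library 3 the highest, overlapping groups and a log2 fold change of -0.29 (SE 0.28, adjusted p = 0.357). Dync1i1 made up 1.16% to 2.89% of the reads of the pair in spermatocytes and 1.60% to 2.23% in spermatids.

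The light intermediate chains attach cargo adaptors to the motor. Dync1li1 (chr9:114688789-114724302) had 1294, 1250.2, 1349 and 1264 in the spermatocyte libraries and 940.4, 767, 703 and 736 in the spermatid libraries. The spermatocyte values were close together, all spermatid values were lower, and the log2 fold change was -0.72 (SE 0.17, adjusted p = 0.00242). Dync1li2 (chr8:104417674-104443047), the more abundant gene of the pair, had 13684, 14636, 10263 and 17663 in the spermatocyte libraries and 8489, 13434, 12355 and 11414 in the spermatid libraries, with overlap and -0.29 (SE 0.21, adjusted p = 0.222). Dync1i2 was called lower with quantile normalization (-1.11) and with the GC trend removed (-1.47). Dync1li1 was called lower in these settings (-1.05 and -1.20) and with equal total reads (-1.16).

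Dynein 2 runs inside cilia and tails that are being built. Its heavy chain Dync2h1 (chr9:6928503-7184446) had 38631, 46010.1, 33828 and 30548 in the spermatocyte libraries and 16951, 24349, 18028 and 19145 in the spermatid libraries. The groups were apart and the log2 fold change of -0.92 (SE 0.19, adjusted p = 6.88e-04) just missed the fold required. It passed with quantile normalization (-1.45), equal total reads (-1.36) and the GC trend removed (-1.65), and without spermatocyte library 4 (-1.01), spermatid library 2 (-1.03) or spermatocyte libraries 3 and 4 together (-1.12). The light intermediate chain Dync2li1 had 2652 to 3149 and 2655 to 3607, with a log2 fold change of 0.15 (SE 0.16, adjusted p = 0.432).

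The shared light chains serve both axonemal and cytoplasmic dyneins and come in the LC8, roadblock and Tctex families. The LC8 genes both rose. Dynll1 (chr5:115297112-115300990) had 15185, 16351, 14891 and 15882 in the spermatocyte libraries and 28087, 34002, 38565 and 33412 in the spermatid libraries. All spermatid libraries were higher, with a log2 fold change of 1.10 (SE 0.16, adjusted p = 4.27e-05), which fell under the fold required in 3 settings, namely equal totals (0.66), quantile normalization (0.52) and removal of the GC trend (0.58). Dynll2 (chr11:87979525-87998298) had 1999, 2193, 4524 and 2402 in the spermatocyte libraries and 23979, 23672, 30226 and 28141 in the spermatid libraries. Its mean was 9.54-fold higher in spermatids, without overlap, and the log2 fold change was 3.33 (SE 0.24, adjusted p = 1.49e-07). Spermatocyte library 3 was the highest spermatocyte library for Dynll2.

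Dynll1 therefore made up 76.7% to 88.4% of the reads of this pair in spermatocytes and 53.9% to 58.96% in spermatids. Per kb of exon, Dynll2 went from 1016 ± 429 to 9687 ± 1173 and Dynll1 from 4016 ± 171 to 8641 ± 1106, so that their levels in spermatids lay within the SD of each other. Their coding sequences are 267 bases each and match at 217 bases (81.3%), with no 50-base window in common. The first 120 coding bases of both, read from GENCODE release M21 (GRCm38), show where they differ, with the 21 differing bases in capitals.
Dynll1: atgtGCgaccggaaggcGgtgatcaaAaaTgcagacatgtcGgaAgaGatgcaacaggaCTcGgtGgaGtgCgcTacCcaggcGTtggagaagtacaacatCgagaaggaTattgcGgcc
Dynll2: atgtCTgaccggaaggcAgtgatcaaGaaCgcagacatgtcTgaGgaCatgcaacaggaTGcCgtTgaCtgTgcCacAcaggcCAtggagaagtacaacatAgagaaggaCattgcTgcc

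**Figure D4:**
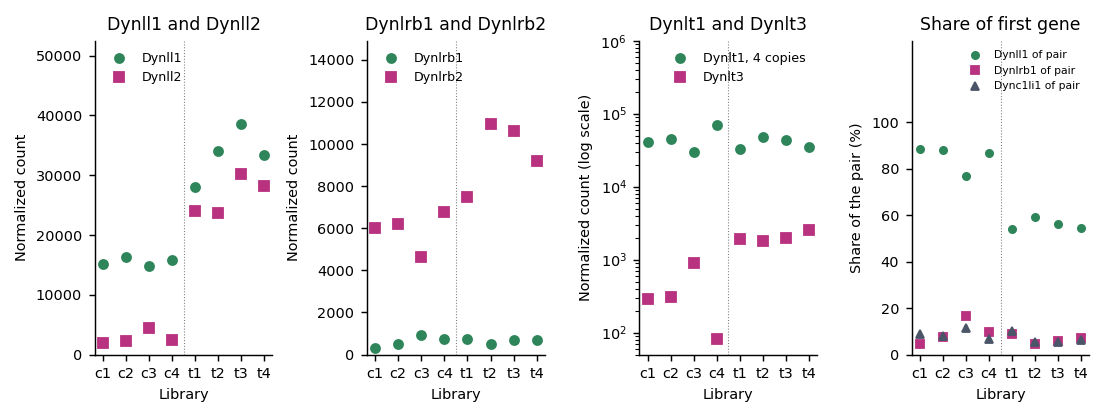
Normalized counts of related light chain genes in spermatocyte libraries 1 to 4 (c1 to c4) and spermatid libraries 1 to 4 (t1 to t4), with a log axis for Dynlt1 and Dynlt3, and the share of each pair's reads held by the first gene. The points of Dynll2 approach those of Dynll1 in spermatids, where the share of Dynll1 lies between 53.9% and 59.0%.

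In the roadblock family Dynlrb2 (chr8:116505015-116515915) had 6020.2, 6216, 4656 and 6779 in the spermatocyte libraries and 7503, 10936, 10636 and 9192 in the spermatid libraries. All 4 spermatid libraries were above the spermatocyte libraries, and the log2 fold change was 0.69 (SE 0.19, adjusted p = 0.00496), under the fold required. Per kb it was first among the 42 models in both cell types, at 11491 ± 1749 in spermatocytes and 18576 ± 3053 in spermatids. Dynlrb1 (chr2:155236533-155250277) was scarce, with 299, 506, 928 and 733 in the spermatocyte libraries and 719, 518, 671 and 709 in the spermatid libraries. Its groups overlapped and its log2 fold change was 0.19 (SE 0.32, adjusted p = 0.593).

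Among the members, the Tctex family holds Dynlt3 on the X chromosome and a cluster of Dynlt1 copies on chromosome 17. Dynlt3 (chrX:9654269-9662985) had 287, 308, 891 and 82.2 in the spermatocyte libraries and 1928, 1778, 1983 and 2521 in the spermatid libraries. Spermatocyte libraries spread from library 4 at the bottom to library 3 at the top, all lay below the spermatids, and the log2 fold change was 2.84 (SE 0.53, adjusted p = 3.98e-04). Without spermatocyte library 3 it was 3.38, without spermatocyte library 4 it was 2.24, and with the GC trend removed it was 1.74.

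Coding bases do little to separate the Dynlt1 copies, and the other exon bases of their models were not compared. The 339 coding bases of Dynlt1a, Dynlt1c and Dynlt1f are identical, and Dynlt1b differs at 1 base, which lies within the first 60 and is in capitals below.
Dynlt1a: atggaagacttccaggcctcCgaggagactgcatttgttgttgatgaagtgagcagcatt
Dynlt1b: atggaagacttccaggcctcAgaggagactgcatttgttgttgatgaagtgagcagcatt
Dynlt1c: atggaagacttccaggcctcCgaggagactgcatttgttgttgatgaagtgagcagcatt
Dynlt1f: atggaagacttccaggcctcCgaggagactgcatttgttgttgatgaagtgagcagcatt
As a sum, the 4 copies had 40757, 44563, 29828 and 69319.9 in the spermatocyte libraries and 32452, 47487, 43791 and 34673 in the spermatid libraries, with overlapping groups. Taken alone, Dynlt1f (chr17:6646602-6655939) had 20860.5, 24554, 16744 and 45279 in the spermatocyte libraries and 15623, 24431, 23309.5 and 17345 in the spermatid libraries, where spermatocyte library 4 stood above the rest, and a log2 fold change of -0.33 (SE 0.28, adjusted p = 0.306). Dynlt1a (chr17:6306345-6317474) had 13098, 13712, 9049 and 16254 in the spermatocyte libraries and 10329, 15864, 14698 and 11175 in the spermatid libraries, with a log2 fold change of 0.0067 (SE 0.22, adjusted p = 0.979). Dynlt1b (chr17:6430112-6436293) had 4906, 4604, 3065 and 6052 in the spermatocyte libraries and 5314, 6476, 5223 and 5457 in the spermatid libraries, and overlapped between groups at 0.31 (SE 0.21, adjusted p = 0.204). These copies may share reads, and none of the 3 was called.

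Dynlt1c (chr17:6601778-6607891) had 1892, 1693, 971 and 1735 in the spermatocyte libraries and 1187, 715, 560.0 and 697 in the spermatid libraries. Spermatocyte library 3 overlapped spermatid library 1, and the log2 fold change of -1.01 (SE 0.28, adjusted p = 0.00562) was at the edge of the fold required. The call was lost with a pseudocount of 8 (-0.999), TMM scaling (-0.99), edgeR (-0.98) and DESeq2 (-0.99), and on leaving out any of 6 libraries in turn (spermatocyte library 1, 2 or 4, or spermatid library 2, 3 or 4). Of the reads of the Dynlt1 copies and Dynlt3 together, the summed Dynlt1 copies were 97.1% to 99.9% in spermatocytes and 93.2% to 96.4% in spermatids. Other Tctex relatives, such as Tcte3 and Tctex1d1, are not in this share.

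In dynactin, Dctn3, the p24 subunit of its shoulder, was the one call. It lies at chr4:41714798-41723163 and had 2128, 1885, 1940.1 and 1819 in the spermatocyte libraries and 4534, 5143, 5338 and 4602 in the spermatid libraries. The spermatocyte libraries were close together, every spermatid library was higher, and the log2 fold change was 1.33 (SE 0.15, adjusted p = 6.41e-06), or 0.90 with equal total reads and 0.93 with quantile normalization, both under the fold required. Dctn2 (chr10:127266262-127281959), or dynamitin, the most abundant dynactin member in reads and per kb, had 31097, 27869.7, 21089.6 and 35233 in the spermatocyte libraries and 22369, 31416, 30628 and 27311 in the spermatid libraries. The groups overlapped, with a log2 fold change of -0.033 (SE 0.20, adjusted p = 0.888).

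Dctn1, the p150 arm that binds dynein and microtubules, had 2648 to 4499 and 2022 to 2808, with a log2 fold change of -0.34 (SE 0.20, adjusted p = 0.15). Dctn4 and Dctn6 are subunits of the pointed-end complex. Dctn4 had 4538 to 9217 and 3803 to 6350.1, with a log2 fold change of -0.29 (SE 0.24, adjusted p = 0.301). Dctn6 had 3915 to 6163 and 3237 to 5561, at -0.30 (SE 0.21, adjusted p = 0.217). The model of Dctn5, another pointed-end subunit, is joined with the neighbouring kinase gene Plk1, so its 7575 to 17725 and 13822 to 21098 cannot be split. None of these models was called, and the groups overlapped for all 4. Dctn4 was called lower with the GC trend removed, at -1.19 (limma adjusted p = 0.00246).

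Promoters were searched for motifs of CREM, a factor known from spermatids, and of RFX factors, known from ciliated cells. RefSeq windows from 250 bases before to 50 after the start (GRCm38.p6) were searched on both strands for 33 of the 41 member symbols. The remaining members were not searched, among them Dctn4 and the called rises Dnah3 and Dynll2. The motif TGACGTCA, bound by CREM and its relative CREB, was in 2 of 33 (6.06%), beside 2.03% of 27025 genes, namely Dctn3, which rose, and Dnah6, which was not called. Its shorter form TGACG, which overlaps it, was in 7 of 33 (21.2%) beside 23.0% of genes. The RFX motif GTTGCC was in 9 of 33 (27.3%) beside 14.1%, of which 1 was called higher (Dynll1), 2 lower (Dnah7a and Dnah7b) and 6 not called. The longer, palindromic RFX motif (X-box) was in 0 of 33, beside 0.355%.

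The windows of Dctn3 (chr4:41723114-41723413, minus strand) and Dnah6 (chr6:73221582-73221881, minus strand) are given 5' to 3', with TGACG and its reverse complement in capitals, as the promoters with the full motif, the first of a gene called higher and the other of a gene that was not called. In Dctn3 the full motif starts 81 bases before the start site, and in Dnah6 it starts 175 bases before. A match is a description of letters and not of binding.
Dctn3: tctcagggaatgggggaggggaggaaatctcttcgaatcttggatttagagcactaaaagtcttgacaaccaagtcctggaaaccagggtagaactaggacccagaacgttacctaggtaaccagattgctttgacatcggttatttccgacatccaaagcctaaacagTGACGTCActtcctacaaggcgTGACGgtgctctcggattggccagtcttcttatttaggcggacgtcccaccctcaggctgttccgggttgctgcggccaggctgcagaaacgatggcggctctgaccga
Dnah6: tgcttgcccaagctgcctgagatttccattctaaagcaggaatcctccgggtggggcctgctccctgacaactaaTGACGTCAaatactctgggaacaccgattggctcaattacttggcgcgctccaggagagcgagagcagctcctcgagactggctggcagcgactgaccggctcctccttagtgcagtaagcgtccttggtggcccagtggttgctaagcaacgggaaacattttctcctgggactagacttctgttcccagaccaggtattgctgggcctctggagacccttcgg

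Where a subunit kind is encoded by several genes, the balance within a library is free of scaling by library. The log2 ratio of Dnah5 to Dnah8 went from -8.73 ± 0.27 in spermatocytes to -3.20 ± 0.17 in spermatids (SD, n = 4) and that of Dnah9 to Dnah17 from -8.87 ± 0.65 to -4.55 ± 0.13. In both cases the groups did not overlap, although the airway-type gene still held only 8.88% to 11.03% and 3.77% to 4.56% of the reads of its pair in spermatids. Dynll1 to Dynll2 went from 2.57 ± 0.57 to 0.34 ± 0.13 and the Dynlt1 copies to Dynlt3 from 7.27 ± 1.90 to 4.26 ± 0.42, also without overlap. The ratios of Dync1i1 to Dync1i2, Dync1li1 to Dync1li2, Dynlrb1 to Dynlrb2, Dnah11 to Dnah17 and Dnaic1 to Dnaic2 overlapped between the cell types. Of 9 ratios, 4 thus separated the groups; these are descriptions, with no test.

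Between libraries of a cell type, the median coefficient of variation of the members was 20.6% in spermatocytes and 17.4% in spermatids, beside 31.2% and 22.6% over all tested models. Spermatocyte library 3 was the lowest of its group for 29 of 42 members (beside 27.5% of all tested models) and the highest for 7 (beside 35.0% of models). Those 7 were Dnah9, Dync1i1, Dync1li1, Dync2li1, Dynll2, Dynlrb1 and Dynlt3, and the Sertoli markers were also highest in that library. Among spermatids, library 1 was the lowest for 35 members (beside 42.2% of models) and library 2 the highest for 31 (beside 29.3%). The calls without spermatocyte library 3 were 7 higher and 10 lower, and without spermatid library 1 they were 7 and 9. Whether Sertoli cell RNA contributes to the 7 genes was not tested.

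**Figure D5:**
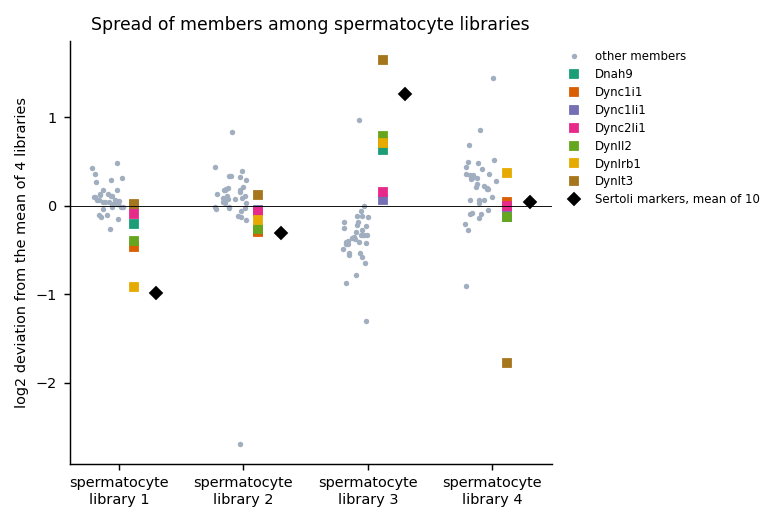
Deviation of each member from its own mean over the 4 spermatocyte libraries, in log2 units, by library. Squares are the 7 members highest in library 3, grey points the other members (spread sideways at random for legibility) and diamonds the mean of the 10 Sertoli markers; in library 3 most grey points lie below 0 and the diamond lies above it, while the height of the squares there follows from how they were picked.

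Other genes of the dynein pathway, listed by role, behaved in a mixed way: 19 of 72 (26.4%) were called higher and 15 (20.8%) lower, beside 32.5% and 29.8% of all tested models, and 38 were not called. The median log2 fold change was 0.043, beside -0.011 over all tested models. By list, arm assembly factors gave 2 higher and 3 lower of 17, docking and nexin-link genes 5 and 2 of 14, other arm and dynein 2 subunits 3 and 2 of 10, other dynactin subunits 2 and 1 of 7, and dynein regulators 7 and 7 of 24. Tctex1d4, a higher call among other arm and dynein 2 subunits, was scarce, with 0 to 14.5 in spermatocytes and 12.0 to 37.5 in spermatids. Its groups overlapped, and it needed its spermatid libraries to pass the filter. Over all lists the counts leaned downward with equal total reads (10 higher and 24 lower), with quantile normalization (12 and 26) and with the GC trend removed (11 and 23 of 64).

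The rises were led by genes of the docking and nexin list. Iqca, a component of the nexin-dynein regulatory complex, had 68.5, 72.6, 45.8 and 67.4 in the spermatocyte libraries and 2352, 3240.0, 3093 and 2993 in the spermatid libraries, a log2 fold change of 5.51 (SE 0.22, adjusted p = 1.51e-09). Ccdc63, an outer arm docking protein of the sperm tail, had 1012, 1258, 1239 and 1125 in the spermatocyte libraries and 31285, 42082, 51888 and 46270.0 in the spermatid libraries, at 5.19 (SE 0.19, adjusted p = 9.53e-10). Fbxl13, also of the regulatory complex, had 1023, 1290.5, 1152 and 714 in the spermatocyte libraries and 23791, 34172, 40054 and 37527 in the spermatid libraries, at 5.02 (SE 0.23, adjusted p = 2.69e-09). For none of these did the groups overlap.

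In the other lists, Capza3, the germ-cell form of the capping protein subunit that dynactin contains, had 634 to 792 in spermatocytes and 20269.8 to 25515 in spermatids, with a log2 fold change of 5.001 (SE 0.16, adjusted p = 9.53e-10). Tctex1d1, a relative of the Tctex light chains, had 263 to 432 in spermatocytes and 9242 to 12757 in spermatids, at 4.90 (SE 0.21, adjusted p = 1.75e-09). Clip1, which tracks microtubule plus ends and binds dynactin, had 647 to 986 in spermatocytes and 8629 to 18369 in spermatids, at 4.15 (SE 0.25, adjusted p = 2.43e-08). The spermatid range lay above the spermatocyte range in each.

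The largest falls included assembly factors. Dyx1c1, which helps to preassemble arms in the cytoplasm, had 3025, 3641, 3174 and 2463 in the spermatocyte libraries and 390.5, 679, 469.9 and 373 in the spermatid libraries, at -2.71 (SE 0.22, adjusted p = 4.11e-07). Zmynd10, another assembly factor, had 59204, 61579, 44154 and 82351 in the spermatocyte libraries and 12940.3, 25802, 17746 and 14163 in the spermatid libraries, at -1.83 (SE 0.25, adjusted p = 2.87e-05). Ninl, a centrosomal dynein adaptor, had 9864, 9625, 7872 and 13157 in the spermatocyte libraries and 1265, 2238, 1482 and 1345 in the spermatid libraries, at -2.69 (SE 0.22, adjusted p = 3.90e-07). All 3 were lower in every spermatid library than in any spermatocyte library.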

How the data were processed

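Stranded libraries of polyadenylated RNA were made per the labels' protocols. The build mm10 and the tools STAR 2.4.0, SAMtools, Picard, FastQC and DESeq appear in the submitters' processing notes. The deposited signal is a normalized count, in which the authors scaled each library's reads by a size factor. How reads were counted, and with which strand setting, is not given in the sources used here. Dividing by the value of 1 read gave whole reads for 100% of the values (within 0.1 read). The floor of 3 reads is 2.42 to 4.50 normalized counts, for counting error only.

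Values were compared as log2(normalized count + 1) with limma 3.58.1 (trend and robust moderation) in R 4.3.3, across all 28735 models with at least 10 in at least 4 libraries, with Benjamini-Hochberg adjustment; the pseudocount understates the change of low genes. Alternatives were pseudocounts, filters, scalings, edgeR 4.0.16, DESeq2 1.42.0, a GC correction and left-out libraries. One alternative, the fit over models with a GC value but without the correction, was added after seeing the data. The test was checked on simulated counts in which 200 models changed, equally up and down, so this does not check the scaling. Exon lengths, coding sequences and overlaps came from GENCODE release M21 (GRCm38) and promoters from RefSeq (GRCm38.p6). 32 member models hold over 99% of their gene's annotated exon bases, 4 hold under 25%, and 16 share exon bases with an opposite-strand gene.

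Values in every library were given for members averaging 100 or more in the higher group that were among the 8 largest called rises or falls, belonged to a paralog pair or were the most abundant of their role, and others by ranges. Of the related genes, the 3 largest called changes each way and the largest of each list were named. The 5' model of Dnah12, Lyrm1, Cdca7l and Tctex1d4 lie outside this rule and were chosen after their values were seen. Members, lists and tests were chosen with earlier results of these data known. Of 73 related genes, 72 were matched, 3 by a synonym and 2 in joint models. Among the markers, Insl3 and Cdhr4 were matched in joint models. The table's 8 further per-sample columns were not used. Replicates were numbered in record order.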

Additional observations from a re-analysis of the deposited data

Results flagged for a closer look

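Each member's 4 values were checked for an outlying library within each cell type, 84 groups in all, and 3 groups held one; chance alone flags about 1 in 20 groups. Dctn1 stood at 4499 in spermatocyte library 4, against 2648 to 2929 in the other spermatocyte libraries. Dnah9 stood at 327 in spermatocyte library 3, against 173 to 193. Dynll2 stood at 4524 in spermatocyte library 3, against 1999 to 2402. Without that library the log2 fold change of Dnah9 was 3.28 and that of Dynll2 was 3.59, so both kept their call.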

How the results depend on the processing

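Over 21 settings, 5 to 8 members were called higher and 8 to 14 lower, and every count was within 1.5 times the one reported. Related genes called higher went from 19 to 10 (equal total reads), 12 (quantile normalization) and 11 (GC trend removed), and those called lower from 15 to 24, 26 and 23; leaving out 1 library gave 16 to 20 and 15 to 17. The cause of these moves was not tested. Among the 39 single genes, 760 values kept their direction and side of the threshold, 15 lost the call, 12 gained it and 32 changed sign. The changes of sign were in uncalled genes near 0. With equal total reads the log2 fold changes were -0.24 for Dynlrb1, -0.42 for Dnaic1, -0.32 for Dnaic2, -0.43 for Dynlt1a and -0.13 for Dynlt1b. With quantile normalization they were -0.15, -0.56, -0.31, -0.56 and -0.15, and with the GC trend removed -0.11, -0.32, -0.14, -0.52 and -0.092, in the same order. Dnaic2 was at -0.017 with edgeR and -0.015 with DESeq2. Without spermatocyte libraries 3 and 4, Dync1i1 was at 0.090, Dnaic2 at -0.19 and Dynlt1a at -0.065. Leaving out 1 library at a time gave -0.11 to 0.43 for Dynlrb1, -0.090 to 0.17 for Dnaic1, -0.32 to 0.34 for Dnaic2, -0.16 to 0.12 for Dynlt1a and -0.17 to 0.072 for Dctn2. No paired analysis was possible because the labels give no replicate numbers and tie no spermatocyte library to a spermatid library. The scarcest spermatocyte values, 17.7 for Dnah11 in library 2 and 38.0 for Dnah5 in library 3, lay above the floor of 3 reads (2.94 and 3.35 normalized counts).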
